A study of Mus musculus with 8 samples.

Results

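The mRNA levels of 10 genes that make reactive oxygen or nitrogen species, or that remove them, were examined in purified mouse Paneth cells 3 hours after an injection of TNF or of PBS. The genes were taken by name from the 55414 Ensembl gene identifiers of the deposited count table, and each name matched 1 identifier. They are Duox2, Duoxa2, Nox1, Noxo1 and Cyba (the NADPH oxidase group), Nos2 (inducible nitric oxide synthase), Sod1 and Sod2 (superoxide dismutases), and Gpx1 and Gpx2 (glutathione peroxidases). All 10 passed the filter on low counts that left 13368 genes for testing.

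Both groups held 4 libraries, described as biological replicates, and each was bulk RNA-seq of sorted Paneth cells from the small intestine of wild-type mice, which the study's methods give as C57BL/6J. One group received PBS, as the control, and the other TNF, a cytokine that drives acute inflammation. Each library came from an individual mouse by the study's account of its sequencing, and dose, route, age and the sex of each mouse were not given in the sources used here. The comparison asked how TNF alters Paneth cell gene expression, and its p-values set the difference between groups against the spread between these libraries.

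Paneth cells sit at the bottom of the crypts of the small intestine and are filled with granules of antimicrobial peptides. NADPH oxidases pass electrons from NADPH to oxygen. NOX1 makes superoxide and depends on the membrane partner p22phox and on an organizer and an activator protein, whereas dual oxidases release hydrogen peroxide and reach the cell surface only with a DUOXA maturation factor. Inducible nitric oxide synthase makes nitric oxide from arginine. Superoxide dismutases turn superoxide into hydrogen peroxide, and glutathione peroxidases reduce hydrogen peroxide with glutathione.

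Levels are given as CPM (counts scaled to a common library total) scaled between libraries by the TMM method, called normalized CPM, and a gene was called when its Benjamini-Hochberg adjusted p from edgeR's quasi-likelihood test was under 0.05. By this rule 7 of the 10 genes were higher after TNF (Duox2, Duoxa2, Nos2, Nox1, Noxo1, Cyba and Gpx2), none was lower, and 3 were not called (Sod1, Sod2 and Gpx1). Among all tested genes, 23.3% were called higher and 19.6% lower (3121 and 2625 genes). Scaling by total counts alone gave 757 genes higher and 2425 lower, and called 6 of the 10 members higher. It shifted the log2 fold changes of all tested genes by a median of -0.39. The edgeR test gave 0 lower members also at an unadjusted p under 0.05, and so did DESeq2 and limma-voom. For the 7 called genes the groups lay fully apart, a pattern seen in 42.1% of all tested genes. The median log2 fold change was 2.87 over the 10 genes and 0.03 over all tested genes. The 10 genes were chosen with earlier results of these data known, so these comparisons describe them and do not test them as a set.

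The libraries held 23824717 to 32576077 counts. All 8 Paneth cell markers examined passed the filter, and their summed level was 1355100 normalized CPM in TNF replicate 4 and 331860 to 489010 in the other libraries, with 1 of the 8, Pla2g2a, called higher. TNF replicate 4 stood apart from the other 7 libraries. Its α-defensin (Defa) genes took 51.4% of counts, against 32.0% to 37.9% elsewhere, and its TMM factor was 0.448, against 0.995 to 1.36 elsewhere. Its normalized CPM therefore sit well above its plain CPM, in which it was the lowest of the 4 TNF libraries for 8 of the 10 genes. For genes named below, a value without this library is given where leaving it out added a call or moved a value by more than 1.5 times, and for some others. Among 11 immune cell markers, 5 (Adgre1, S100a8, S100a9, Cd3e and Cd79a) were at 0 in all 8 libraries. Only 3 of the 11 passed the filter, of which Cd52 was called higher. The summed level of the 11 was 10.1 to 14.7 normalized CPM in PBS, at most 16.8 in TNF replicates 1 to 3 and 71.4 in TNF replicate 4, where Lyz2, a close relative of the Paneth cell gene Lyz1, supplied most counts. In bulk RNA, fewer expressing cells and less RNA per cell cannot be told apart.

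Duox2 and Duoxa2 are neighbours on chromosome 2 that are transcribed away from each other. In GRCm39, Duox2 (ENSMUSG00000068452) lies at chr2:122109728-122128930 on the minus strand and Duoxa2 (ENSMUSG00000027225) at chr2:122129380-122133366 on the plus strand, so that 449 bases separate their annotated start sites. The second pair follows, with Duoxa1 at chr2:122132672-122144217 on the minus strand and Duox1 at chr2:122146153-122178453 on the plus strand. To show the sequence next to the genes that rose most in their groups, the 250 bases before the start of the canonical transcript of Duox2, Duoxa2, Nos2 and Gpx2 are given from the GRCm39 genome, 5′ to 3′ on the strand of the gene, with a TATA box or an NF-kB consensus match in capitals. The Duox2 and Duoxa2 windows overlap in part, on opposite strands.
Duox2, chr2:122128931-122129180, minus strand: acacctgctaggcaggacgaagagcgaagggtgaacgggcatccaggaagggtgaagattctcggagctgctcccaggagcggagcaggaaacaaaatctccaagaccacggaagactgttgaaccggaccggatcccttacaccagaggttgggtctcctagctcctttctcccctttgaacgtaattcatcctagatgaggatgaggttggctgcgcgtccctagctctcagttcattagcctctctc
Duoxa2, chr2:122129130-122129379, plus strand: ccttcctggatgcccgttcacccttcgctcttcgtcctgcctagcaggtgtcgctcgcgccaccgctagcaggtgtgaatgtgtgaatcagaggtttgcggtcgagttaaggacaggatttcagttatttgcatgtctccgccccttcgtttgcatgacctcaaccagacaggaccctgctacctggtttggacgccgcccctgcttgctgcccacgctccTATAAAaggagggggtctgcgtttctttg
Nos2, chr11:78811363-78811612, plus strand: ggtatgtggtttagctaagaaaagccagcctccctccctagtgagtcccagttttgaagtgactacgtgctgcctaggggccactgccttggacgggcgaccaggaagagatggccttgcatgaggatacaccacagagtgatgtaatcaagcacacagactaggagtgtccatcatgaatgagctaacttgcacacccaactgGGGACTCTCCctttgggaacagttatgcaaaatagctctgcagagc
Gpx2, chr12:76842327-76842576, minus strand: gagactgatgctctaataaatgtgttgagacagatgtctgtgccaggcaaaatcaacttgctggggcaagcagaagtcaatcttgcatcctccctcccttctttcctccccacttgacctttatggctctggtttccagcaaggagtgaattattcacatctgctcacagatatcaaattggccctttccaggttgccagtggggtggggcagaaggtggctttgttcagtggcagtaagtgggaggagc

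The windows were searched for the NF-kB consensus, the interferon-gamma-activated site (TTCNNNGAA), the antioxidant response element (TGACNNNGC), each on both strands, and the TATA box (TATAAA) on the coding strand. An NF-kB consensus match, GGGACTCTCC, stood 46 to 37 bases before the Nos2 start, and the Duoxa2 window held a TATA box 29 to 24 bases before its start. No match to any of the 4 motifs was found in the windows of Duox2, Noxo1, Cyba and Gpx2. The Nox1, Noxo1, Sod2 and Gpx1 windows precede the canonical transcript and lie wholly or, for Gpx1, partly inside the full span of the gene, which other transcripts extend. Of the other members, Nox1 and Gpx1 held an NF-kB match, Sod2 a TTCNNNGAA match and Sod1 a TGACNNNGC match. Over 11667 windows of the same length before tested protein-coding genes, 8.37% held the NF-kB consensus, 6.56% TTCNNNGAA, 10.7% TGACNNNGC and 4.34% TATAAA. A match is a run of letters and not evidence of binding, and the searched windows do not cover distal elements.

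The dual oxidase pair rose together from unequal starting levels. Duox2, the catalytic subunit, stood at 33.1, 23.8, 25.9 and 22.1 normalized CPM in PBS replicates 1 to 4 and at 329, 524, 281 and 269 in TNF replicates 1 to 4. Every TNF library was far above every PBS library, with TNF replicate 2 highest. The group means were 26.2 ± 4.82 and 351 ± 118 (SD, n = 4 each), a 13.4-fold rise (log2 fold change 3.74, SE 0.25, edgeR quasi-likelihood adjusted p = 1.5e-06). Duoxa2, the maturation factor that carries DUOX2 to the plasma membrane, was scarce in PBS, with 26 to 49 counts a library and rank 11646 of 13368 by level. Its normalized CPM were 1.31, 0.97, 1.18 and 0.77 in PBS and 85.8, 206, 116 and 124 in TNF. The gap between the groups was the widest of the 10 genes, a 126-fold rise (log2 fold change 6.98, SE 0.33, edgeR adjusted p = 2.2e-07), and Duoxa2 ranked 20 of 13368 tested genes by log2 fold change.

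Because Duoxa2 rose more than Duox2, their balance within each library shifted. Each Duoxa2 count was matched by 21.5 to 28.3 Duox2 counts in PBS and by 2.16 to 3.83 in TNF. This log2 count ratio does not depend on scaling between libraries and fell by 3.20 (exact permutation test over 70 assignments, two-sided p = 0.0286, the smallest that 4 against 4 allows, adjusted over 4 ratios 0.0381). Per kilobase of the canonical transcript, Duoxa2 was below Duox2 in all 4 PBS libraries (0.664 against 4.29 normalized CPM per kb on average). After TNF the averages were 83.5 for Duoxa2 and 57.4 for Duox2, with the 2 genes nearly level in TNF replicate 1 (53.9 and 53.8) and Duoxa2 further above in the other 3 libraries.

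The other dual oxidase pair behaved unequally. Duoxa1, the partner of DUOX1, rose from 0.443 ± 0.088 to 48.2 ± 17.7 normalized CPM (log2 fold change 6.74, SE 0.31, edgeR adjusted p = 2.1e-07). Duox1 itself had 0 to 3 counts in the PBS libraries and 0 to 6 in the TNF libraries, too few to be tested. Exons of Duoxa1 and Duoxa2 overlap by 682 bases on opposite strands, and 59.9% of the 75-base stretches of Duoxa2 occur in no other annotated gene on either strand. The library kit keeps strand information, but no source used here says whether the counting used it, so part of the Duoxa1 signal may be Duoxa2 reads or the reverse.

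**Figure D1:**
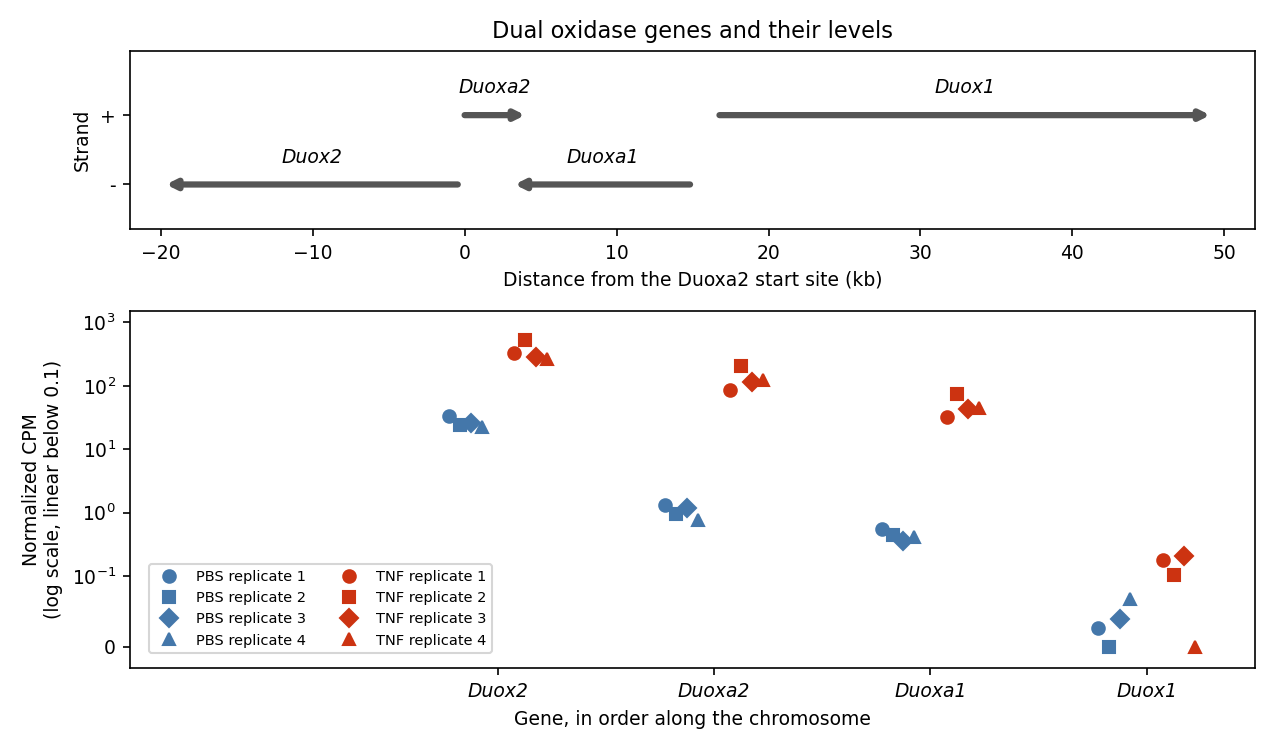
The upper panel draws the 4 dual oxidase genes to scale as arrows in the direction of transcription, by distance from the Duoxa2 start site in kb. The lower panel plots normalized CPM in each of the 4 PBS (blue) and 4 TNF (red) libraries on a log axis that is linear below 0.1, and shows Duox2, Duoxa2 and Duoxa1 apart between the groups while Duox1 stays under 1 in all 8 libraries.

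Nos2, which makes nitric oxide from arginine, was also close to absent in PBS and high after TNF. The gene (ENSMUSG00000020826, chr11:78811613-78851080, plus strand) had 2.12, 1.15, 2.29 and 1.86 normalized CPM in PBS. In TNF the values were 124, 302, 97.0 and 144, and as for Duox2 and Duoxa2 the highest was TNF replicate 2. The means were 1.85 ± 0.499 and 167 ± 92.3 (SD, n = 4 each), an 89.5-fold rise (log2 fold change 6.48, SE 0.42, edgeR adjusted p = 1.2e-06), which ranked 33 of 13368. Neither other nitric oxide synthase was tested, since Nos1 and Nos3 had at most 9 counts in any library.

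NOX1 and its partners rose to different degrees. Nox1 (ENSMUSG00000031257, chrX:132987170-133122705, minus strand), the catalytic subunit, stood at 5.20, 3.53, 3.90 and 3.62 normalized CPM in PBS and 48.5, 48.6, 28.7 and 56.1 in TNF, groups that lay well apart. Its rise was 11.1-fold (log2 fold change 3.48, SE 0.22, edgeR adjusted p = 1.2e-06). Cstf2 shares 564 exon bases with Nox1 on the opposite strand and had 7261 counts over all libraries against 4789 for Nox1, so with the strand setting unknown the Nox1 level in PBS, 95 to 194 counts a library, is uncertain. Cyba (ENSMUSG00000006519, chr8:123150422-123159706, minus strand) encodes p22phox, the membrane partner that stabilizes NOX proteins. Its values were 15.4, 19.6, 24.0 and 13.8 in PBS and 73.9, 71.0, 62.5 and 157 in TNF. The rise was 5.01-fold (log2 fold change 2.32, SE 0.30, edgeR adjusted p = 0.00014), and the log2 fold change was 1.95 without TNF replicate 4, the highest library.

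Noxo1 (ENSMUSG00000019320, chr17:24914682-24919504, plus strand), the organizer that positions NOX1, was already well expressed in PBS. It measured 33.1, 33.7, 32.4 and 39.5 normalized CPM there and 64.6, 60.0, 50.7 and 117 in TNF. The groups did not overlap, and the rise was 2.10-fold (log2 fold change 1.07, SE 0.23, edgeR adjusted p = 0.0036). The log2 fold change was 0.77 without TNF replicate 4 (edgeR adjusted p = 0.00016), and with libraries scaled by total counts alone it was 0.53 and was not called (edgeR adjusted p = 0.17). Much of the Noxo1 transcript lies opposite exons of Tbl3 or Gfer, and 45.8% of its 75-base stretches occur in no other annotated gene.

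Within each library, Noxo1 gave 6.36 to 10.9 counts for each Nox1 count in PBS and 1.23 to 2.09 in TNF. The log2 ratio fell by 2.45, with no overlap between the groups (exact permutation test, two-sided p = 0.0286, adjusted over 4 ratios 0.0381). Noxa1, the activator of NOX1, had means of 8.27 in PBS and 13.0 in TNF (log2 fold change 0.64, edgeR adjusted p = 0.035). TNF replicate 4 was highest at 20.3, and without it the log2 fold change was 0.37 (adjusted p = 0.020). With libraries scaled by total counts alone it was 0.13 and was not called (adjusted p = 0.74), and the call held in 10 of 16 alternatives.

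**Figure D2:**
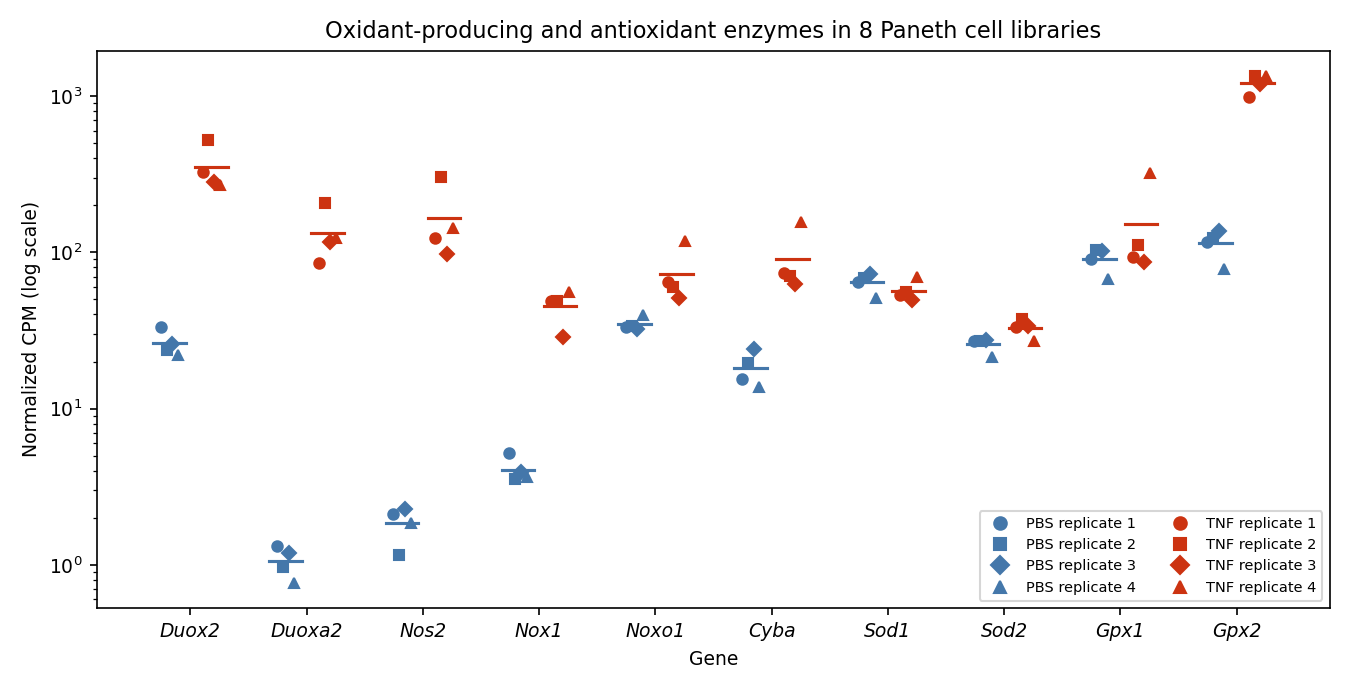
Normalized CPM (log axis) of each of the 10 genes in 4 PBS (blue) and 4 TNF (red) libraries, with a marker shape for each replicate number and a line at the group mean. The red points lie above all blue points for Duox2, Duoxa2, Nos2, Nox1, Noxo1, Cyba and Gpx2, and mix with them for Sod1, Sod2 and Gpx1, where TNF replicate 4 (red triangle) is far above the other TNF libraries at 321.

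The superoxide dismutases differed little between the groups. Sod1 (ENSMUSG00000022982, chr16:90017408-90027657, plus strand), the copper and zinc enzyme of the cytosol, stood at 64.1, 68.8, 73.1 and 50.9 normalized CPM in PBS and 53.0, 55.7, 49.7 and 69.0 in TNF. The groups overlapped, and the log2 difference of -0.18 (95% interval -0.50 to 0.15, edgeR adjusted p = 0.35) was within the spread. Without TNF replicate 4 the Sod1 difference was -0.27 and was not called (edgeR adjusted p = 0.094). Sod2 (ENSMUSG00000006818, chr17:13224095-13259591, plus strand), the manganese enzyme of mitochondria, had 27.2, 27.1, 27.6 and 21.3 in PBS and 33.4, 37.6, 33.6 and 27.2 in TNF. TNF replicates 1 to 3 were above every PBS library, and TNF replicate 4 lay among the PBS values.

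The Sod2 difference was at the edge of the threshold. Its log2 fold change was 0.36 (95% interval 0.064 to 0.65, edgeR unadjusted p = 0.0215, adjusted p just above 0.05), and without TNF replicate 4 it was 0.45 and was called (edgeR adjusted p = 0.0062). Scaled by total counts alone it was 0.02. In counts of the same library, Sod2 came to 0.378 to 0.424 for each Sod1 count in PBS, 0.630 to 0.676 in TNF replicates 1 to 3 and 0.394 in TNF replicate 4. The log2 ratio differed by 0.53 over all 8 libraries (exact permutation test, two-sided p = 0.114, adjusted 0.114) and by 0.71 without TNF replicate 4 (p = 0.0286, the smallest that 4 against 3 allows, exact). For Sod1, 21.4% of the 75-base stretches occur in no other annotated gene, mainly because Scaf4 lies opposite, so its level is less certain than that of Sod2 (93.0%).

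The glutathione peroxidases separated. Gpx2 (ENSMUSG00000042808, chr12:76839107-76842326, minus strand), the form of the gastrointestinal epithelium, had 116, 124, 137 and 78.4 normalized CPM in PBS and 981, 1338, 1200.3 and 1343 in TNF. It was 10.7-fold higher (means 114 ± 25.2 and 1215 ± 170, SD, n = 4 each, log2 fold change 3.42, SE 0.22, edgeR adjusted p = 1.1e-06), with no overlap. Gpx1 (ENSMUSG00000063856, chr9:108216102-108217546, plus strand), the form found in most cells, had 90.1, 103, 102 and 67.8 in PBS and 93.7, 111, 86.7 and 321 in TNF. TNF replicates 1 to 3 thus fell in or near the PBS range, and TNF replicate 4 was far above all other libraries.

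Over all libraries Gpx1 had a log2 fold change of 0.75 (95% interval -0.097 to 1.598, edgeR adjusted p = 0.14). With that library left out the value dropped to 0.11 (adjusted p = 0.55). For Gpx1, 28.1% of the 75-base stretches occur in no other annotated gene, since Gm57050 covers 1232 of its exon bases on the opposite strand, so its level is also less certain than that of Gpx2 (89.7%). Each Gpx1 count was matched by 1.16 to 1.35 Gpx2 counts in PBS, by 10.5, 12.1 and 13.8 in TNF replicates 1 to 3 and by 4.19 in TNF replicate 4. The log2 ratio rose by 2.89 and the groups did not overlap (exact permutation test, two-sided p = 0.0286, adjusted over 4 ratios 0.0381).

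Both peroxidases are selenoproteins, in which a TGA codon inside the reading frame is read as selenocysteine at the active site. The codon and its neighbours, from the canonical GENCODE M39 coding sequences with the TGA in capitals, are shown to place it in each gene. It is codon 47 of Gpx1 and codon 40 of Gpx2, and the thioredoxin reductase Txnrd1, described below, has its own at codon 498, next to the end.
Gpx1: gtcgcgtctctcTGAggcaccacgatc
Gpx2: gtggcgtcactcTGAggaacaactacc
Txnrd1: cagtctggctgcTGAggt

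Of 9 genes for selenocysteine incorporation and selenium transport, all tested, 1 was called by edgeR, Sephs1, a selenophosphate synthetase homologue, which was lower (log2 fold change -0.33, adjusted p = 0.030), a call held in 7 of 16 alternatives. The median log2 fold change of this list was -0.05, and 23.3% of all tested genes were called higher and 19.6% lower.

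**Figure D3:**
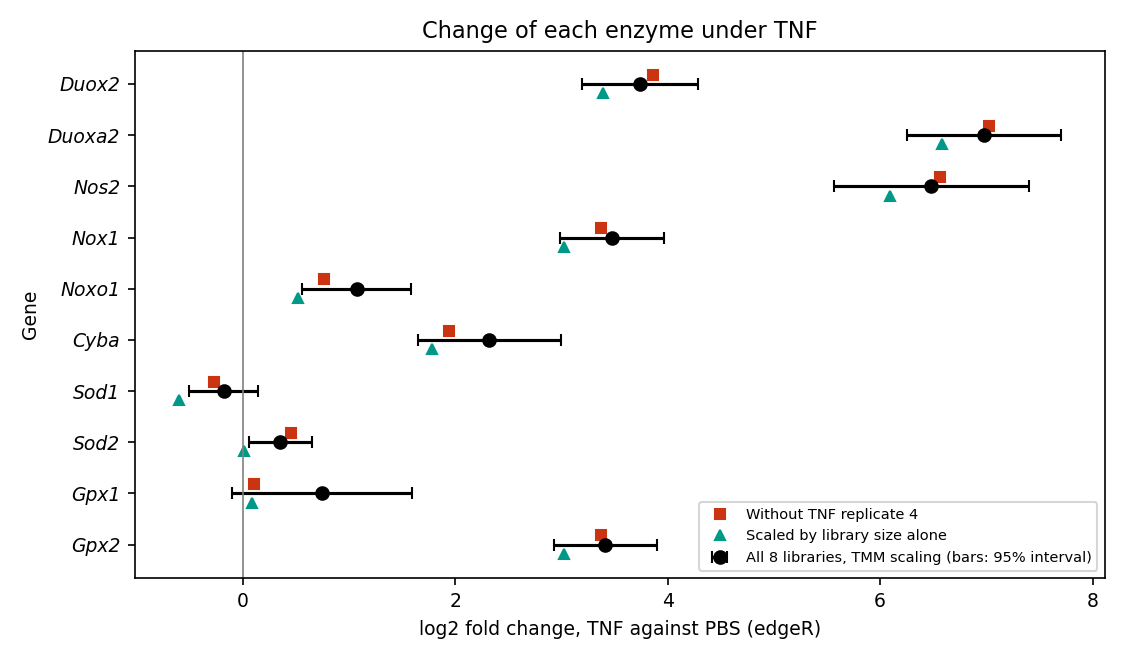
log2 fold change of TNF against PBS from edgeR for each of the 10 genes, with its 95% interval (black, all 8 libraries), the value without TNF replicate 4 (red squares) and the value with libraries scaled by total counts alone (green triangles). Duoxa2 at 6.98 and Nos2 at 6.48 lie farthest right, and Gpx1 moves from 0.75 to 0.11 when TNF replicate 4 is left out.

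**Figure D4:**
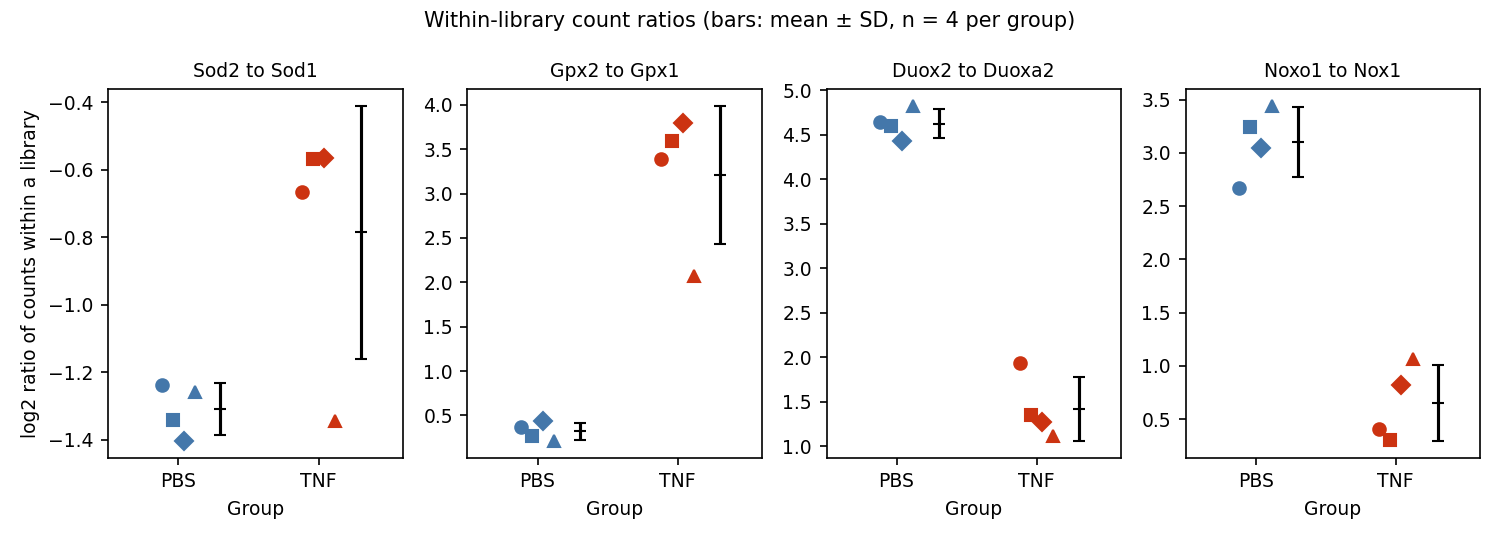
log2 ratio of the counts of 2 genes within each library, in 4 PBS (blue) and 4 TNF (red) libraries, with the mean and SD in black; marker shapes give replicates 1 to 4 as circle, square, diamond and triangle. The groups lie apart for Gpx2 to Gpx1, Duox2 to Duoxa2 and Noxo1 to Nox1, and for Sod2 to Sod1 the TNF triangle at -1.34 lies among the PBS values.

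Per kilobase of canonical transcript, the order of the levels in PBS ran from Gpx2 (107 ± 23.7 normalized CPM per kb) and Gpx1 (84.6 ± 15.3), whose libraries overlapped, through Cyba (23.0 ± 5.73), Noxo1 (13.9 ± 1.30) and Sod1 (12.1 ± 1.81), to Sod2 (4.31 ± 0.507) and Duox2 (4.29 ± 0.789). Nox1 (1.59 ± 0.302), Duoxa2 (0.664 ± 0.151) and Nos2 (0.442 ± 0.119) came last. Noxo1 and Sod1 overlapped, as did Sod2 and Duox2, and Duoxa2 and Nos2. After TNF, Gpx2 led alone at 1143 ± 160 per kb. Gpx1 (143), Cyba (115), Duoxa2 (83.5), Duox2 (57.4), Nos2 (39.8), Noxo1 (29.2), Nox1 (17.7) and Sod1 (10.7) followed, each gene from Gpx1 to Nox1 overlapping the next, and Sod2 (5.50) was lowest and apart from Sod1. The Gpx1 mean rests on TNF replicate 4 (299 per kb), since the other TNF libraries had 80.8 to 103. By this measure Duoxa2 and Nos2 moved from the foot of the order to its middle, while Sod1 and Sod2 moved to its foot. The canonical Sod1 transcript used here has 5315 bases, and a shorter form would give Sod1 a higher value per kb. With the merged length of all annotated exons in place of the canonical transcript, the order in PBS changed: Gpx1 (62.8 per kb) stood above Gpx2 (35.4), Cyba (7.90) fell beside Noxo1 (7.95) and Sod1 (7.43), and Sod2 (1.98) was below Duox2 (3.87). After TNF, Cyba (39.6) then stood below Duoxa2 (83.5) and Duox2 (51.8).

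The genes most like Duox2 and Nos2 across the 8 libraries were found by the root mean square difference of log2 normalized CPM, after subtraction of each gene's PBS mean, among 8498 tested genes with a mean of at least 5 normalized CPM. Nearest to Duox2 were Tnfrsf1b (0.29), which encodes the second TNF receptor, Atp10b (0.29), Cebpd (0.30), Sting1 (0.32) and Hk2 (0.35), a hexokinase. Tnfrsf1b stood at 4.25 normalized CPM in PBS and 57.2 in TNF. Nearest to Nos2 were Duoxa1 (0.47), Duoxa2 (0.52), Tnf (0.60), Trim15 (0.61) and B3galt5 (0.61). Tnf itself stood at 0.320 normalized CPM in PBS and 19.0 in TNF. These likenesses are descriptions over 8 libraries that share 1 contrast.

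A further 90 redox genes in 6 lists were examined beside these 10, and 75 of them were tested. By edgeR 20 were higher and 10 lower after TNF, with a median log2 fold change of 0.06, against 23.3% and 19.6% of all tested genes called higher and lower. Without TNF replicate 4 they were 20 and 17.

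Among 13 other NADPH oxidase genes, 7 were tested, 5 were higher and the other 2 (Rac2 and Hvcn1) were not called (median log2 fold change 0.99). Over all tested genes 23.3% were higher and 19.6% lower. Beside Duoxa1 and Noxa1, the higher genes included Rac1, the small GTPase that activates NOX complexes (118 to 234 normalized CPM, log2 fold change 0.99, SE 0.13). Cybc1, a chaperone of NOX2 and p22phox, was higher too (10.7 to 33.8, 1.65, SE 0.13). The catalytic subunit of phagocytes, Cybb, had 1 count in all 8 libraries together, and Nox3 and Nox4 had none. Ncf1 and Ncf4, subunits of the phagocyte enzyme, had at most 6 counts in any library. Rac1 was not called with libraries scaled by total counts alone (edgeR adjusted p = 0.15).

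In the list for nitric oxide, its cofactor and arginine, 6 of 12 tested genes were higher and 1 was lower (median log2 fold change 0.21). Over all tested genes the shares were 23.3% higher and 19.6% lower. Gch1, the rate-limiting enzyme for the cofactor tetrahydrobiopterin, rose from 0.902 ± 0.260 to 13.5 ± 2.08 normalized CPM (log2 fold change 3.86, SE 0.22, edgeR adjusted p = 4.9e-07). Ass1 (0.97, SE 0.13) and Asl (0.55, SE 0.14), which rebuild arginine from citrulline, rose too, although neither was called with libraries scaled by total counts alone. Nostrin, which binds endothelial nitric oxide synthase, rose from 5.05 to 29.0 normalized CPM (log2 fold change 2.52, SE 0.13). The arginine transporter Slc7a1, named after its values were seen, was higher (0.65, edgeR adjusted p = 0.0081), but not with libraries scaled by total counts alone (0.33, adjusted p = 0.54).

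Among enzymes that remove superoxide and peroxide, 11 were tested, 1 was higher and 2 were lower (median log2 fold change -0.0035), beside 23.3% and 19.6% of all tested genes. The summed level of the list was 865 normalized CPM in TNF replicate 4, 377 to 424 in the other TNF libraries and 340 to 472 in PBS. Catalase, Cat, which breaks down hydrogen peroxide in peroxisomes, fell from 43.8 ± 1.61 to 25.4 ± 3.33 normalized CPM (log2 fold change -0.78, SE 0.12, edgeR adjusted p = 0.00032). Ccs, the copper chaperone for SOD1, was called lower (-0.48, adjusted p = 0.033) although its groups overlapped and the call held in only 11 of 16 alternatives, and Pxdn, a peroxidase of the extracellular matrix, was higher (0.87, adjusted p = 0.0066), a call lost with libraries scaled by total counts alone (0.52, adjusted p = 0.33). The 6 peroxiredoxins were not called.

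In the thioredoxin and glutathione list, 5 of 17 tested genes were higher and 4 lower (median log2 fold change 0.15), beside 23.3% and 19.6% of all tested genes. Gclc, the catalytic subunit of the enzyme that limits glutathione synthesis, rose from 26.9 ± 1.92 to 236 ± 43.9 normalized CPM (log2 fold change 3.13, SE 0.16, edgeR adjusted p = 3.2e-07). Its modifier subunit Gclm, named after its values were seen, moved the other way (20.8 to 15.2, log2 fold change -0.45, edgeR adjusted p = 0.0085). With libraries scaled by total counts alone the Gclm log2 fold change was -0.83 and was not called (edgeR adjusted p = 0.058). Txnrd1, the cytosolic thioredoxin reductase, rose from 89.8 to 222 (1.31, SE 0.15) and Srxn1, which repairs peroxiredoxins, from 13.8 to 24.3 (0.82, SE 0.17). With libraries scaled by total counts alone neither Txnrd1 (0.96, edgeR adjusted p = 0.058) nor Srxn1 (0.51, adjusted p = 0.33) was called. Glrx, a glutaredoxin, fell from 16.7 to 7.34 (-1.18, SE 0.18). The remaining genes called lower were Txnrd2, the mitochondrial thioredoxin reductase (7.40 to 4.32, -0.78, edgeR adjusted p = 0.0032), and Txnip, which binds thioredoxin (263 to 155, -0.76, adjusted p = 0.0040), both named after their values were seen.

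The list of Nrf2, its inhibitor Keap1 and target genes leaves out targets described above, such as Gclc, Gclm, Txnrd1, Srxn1 and the member Gpx2. Of its 19 tested genes, 3 were higher and 2 lower (median log2 fold change 0.02), beside 23.3% and 19.6% of all tested genes. Abcc1, an exporter of glutathione conjugates (0.78, SE 0.10), and Pgd, a source of NADPH (0.49, SE 0.16), were higher, as was Hmox1, named after its values were seen (1.66 to 3.02 normalized CPM, 0.84, edgeR adjusted p = 0.015). Gstm1, a glutathione transferase (-0.82, SE 0.15), and Hmox2, the constitutive heme oxygenase (-0.59, SE 0.13), were lower. With libraries scaled by total counts alone Abcc1 (0.40, adjusted p = 0.39), Hmox1 (0.40, adjusted p = 0.42) and Pgd (0.13, adjusted p = 0.80) were not called, and Pgd kept its call in 10 of 16 alternatives.

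**Figure D5:**
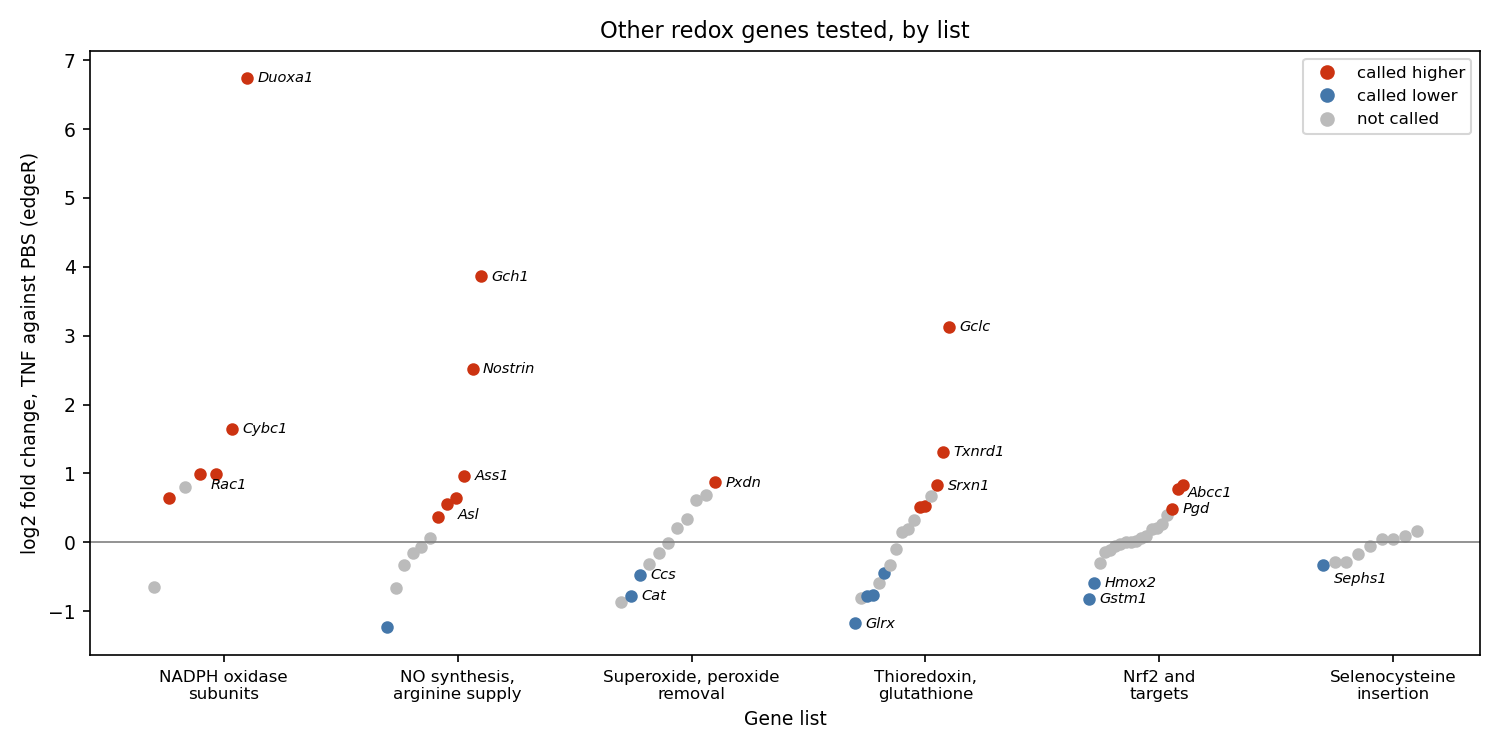
log2 fold change of TNF against PBS from edgeR for each of the 75 tested redox genes of the 6 lists, 1 point a gene, sorted within its list; red points were called higher, blue lower and grey not called at adjusted p under 0.05. Duoxa1 at 6.74, Gch1 at 3.86 and Gclc at 3.13 lie highest, and most points of the Nrf2 and selenocysteine lists lie near 0.

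Markers of other cells are given beside these results, and their part in them was not tested. Of 8 enterocyte markers, 2 were called by edgeR, both lower, with summed levels of 307 to 369 normalized CPM over all libraries. Of 7 goblet cell markers, 1 was higher and 2 lower, and their sum was 25451 in TNF replicate 4 and 7160 to 12030 elsewhere. Of 6 crypt stem cell markers, 4 were lower. Beside these counts, 23.3% of all tested genes were called higher and 19.6% lower. Of 7 stroma and endothelium markers, only Vim was tested, and it was higher, with sums of 0.260 to 1.70 normalized CPM over the list. The leukocyte gene Ptprc had 3 to 10 counts in the PBS libraries and 0 to 9 in the TNF libraries, and the phagocyte oxidase gene Cybb was at or near 0 throughout.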

How the data were processed

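RNA was extracted with the Aurum Total RNA Mini kit from sorted Paneth cells, and the Illumina TruSeq Stranded mRNA kit served for library preparation. The authors deposited 1 table of raw gene counts for 8 libraries (whole counts per Ensembl gene, not normalized). The submitters' processing notes name FastQC 0.12, STAR 2.7.10a, the mm39 build and DESeq2. The counting tool, its strand setting and its treatment of reads that map to several places are stated in no source used here. Of 55414 identifiers, 54749 had a name in GENCODE M39, and 665 did not and are unnamed here. Groups and replicate numbers came from the sample titles, and no batch or date is labelled.

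Counts were scaled by TMM, filtered with filterByExpr and tested with edgeR 4.0.16 (R 4.3.3) in 1 quasi-likelihood fit with no covariate, with Benjamini-Hochberg adjustment over 13368 genes. Standard errors and 95% intervals of log2 fold changes come from that fit. The code was tested on simulated data. Ratios of counts within a library, with 0.5 added to each count, went into an exact permutation test, two-sided. Total counts per library were 23824717 to 32576077. As alternatives, scaling was by RLE, by library size alone or with Defa genes left out, and other filters, DESeq2 1.42.0, limma-voom (limma 3.58.1), a replicate block, a stricter threshold and omission of each library were tried.

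The text names all 10 members, up to 4 genes per list with the smallest p among those called whose mean over all libraries reached 5 normalized CPM, and the 5 genes most like Duox2 and the 5 most like Nos2. Others are said to be named after their values were seen, and a few genes that the rule or a count would name are not reported here. Members and lists were chosen with earlier results of these data known. No library pair agreed within counting noise, so none was merged.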

Additional observations from a re-analysis of the deposited data

Results flagged for a closer look

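In 4 of 28 groups of 4 libraries, 1 library lay far from the other 3 by Dixon's criterion, which chance alone passes in about 1 of 20 groups. In TNF replicate 4, Cyba was highest at 157.3 normalized CPM, Gpx1 was highest at 320.7, and the log2 ratio of Sod2 to Sod1 counts was lowest at -1.344. In PBS replicate 4, Sod2 was lowest at 21.26 normalized CPM. In plain CPM, Cyba in TNF replicate 4 was 70.5, between the 66.4 and 81.7 of the other TNF libraries, whereas Gpx1 was still the highest of the TNF libraries at 144, against 92.1 to 110 in the others.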

How the results depend on the processing

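Members called higher numbered 6 with libraries scaled by total counts alone, where Noxo1 was lost, and 7 or 8 under every other setting, and 0 were lower under all of them. Sod2 was called also without Defa genes in the scaling (edgeR adjusted p = 0.0498), by limma-voom (adjusted p = 0.041) and without TNF replicate 4, and Sod1 and Gpx1 under none of 16 alternatives. Scaling by total counts alone moved the share of calls that were higher from 54.3% to 23.8%. It left 5 of the other redox genes higher, against 20. Other redox genes called lower numbered 8 to 17 when 1 library was left out, with 17 without TNF replicate 4. The difference in the log2 ratio of Sod2 to Sod1 ranged from 0.45 to 0.71 when 1 library was left out and passed the threshold only without TNF replicate 4. No gene with a printed log2 fold change had another direction in these alternatives. Libraries with the same number showed no clear shared deviation (correlations 0.023, 0.066, -0.14 and -0.13). Such values cannot show whether the numbers pair libraries, and the labels do not say. With a replicate block 8 members were higher, with Sod2 added (0.35, edgeR adjusted p = 0.040), and 17 other redox genes were higher and 8 lower, with Ccs, Noxa1 and Sephs1 among those lost. Depth limits genes with few counts in PBS, such as Duoxa2 with 26 to 49 a library.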
